A study of Mus musculus with 12 samples.

Results

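The genes described here are 8 rows of both count tables: Aim2, the IFI200 genes Ifi203, Ifi204, Ifi205, Mnda and Mndal, and the pyrin domain genes Pydc3 and Pydc4. They were taken by gene symbol from the 24421 genes listed, and 8 of 8 passed the filter on low counts, as did 12164 genes in all. The samples are 12 libraries of polyA RNA from bone marrow-derived macrophages of male C57BL/6J mice aged 8 weeks, that is, macrophages differentiated in culture from marrow cells. The 4 groups of 3 libraries were resting cells with a control siRNA (siControl, M0), resting cells with an siRNA against Ehd1 (siEhd1, M0), and cells with siControl or with siEhd1 that were also treated with lipopolysaccharide (LPS, M1), the bacterial cell wall component sensed by Toll-like receptor 4. Every group carried an siRNA, and no untransfected group was analysed. The series concerns EHD1, which helps return endocytosed proteins to the cell surface, and inflammation in macrophages. The labels do not say whether the libraries of a group came from separate mice or cultures, so the p-values here reflect library-to-library variation that could be technical.

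IFI200 proteins, also called PYHIN proteins, usually join a pyrin domain, which binds other pyrin domains, to a HIN domain, which binds DNA. AIM2 binds double-stranded DNA in the cytosol and recruits the adaptor ASC (gene Pycard) through its pyrin domain, which activates caspase-1, cleaves interleukin-1 beta and interleukin-18 and opens gasdermin D pores. Most mouse IFI200 genes are induced by type I interferon, and LPS makes macrophages release interferon beta. The genes form a cluster of tandem copies on distal chromosome 1, and several are close relatives in sequence. In GENCODE M21 (GRCm38) Aim2 lies at chr1:173350879-173466040 and Pydc3 at chr1:173673675-173698395, both on the plus strand. The others are on the minus strand: Pydc4 at chr1:173566283-173599274, Ifi204 at chr1:173747293-173766943, Mndal at chr1:173849126-173942491, Mnda at chr1:173896345-173913046, Ifi203 at chr1:173920407-173942672 and Ifi205 at chr1:174011998-174031810.

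Library totals lay between 18572725 and 22545272 counts. Ehd1 itself was lower with its siRNA in both states, without overlap of libraries, at 59.2% of control in resting cells and 48.7% after LPS. The 8 macrophage markers examined, among them Csf1r, Adgre1 and Lyz2, had counts in every library, with a summed level of 19600 to 38700 CPM (the count relative to library size after TMM scaling). The 5 neutrophil, 6 dendritic cell and 6 lymphocyte markers in the tables summed to at most 4.21, 1.72 and 0.484 CPM in any library, with Retnlg, Cd3e and Nkg7 at 0 in all 12. The 4 mast cell and erythroid markers summed to at most 0.264 CPM. The 6 stromal and endothelial markers summed to between 13.9 and 41.6 CPM, of which Kdr gave 13.6 to 26.4 CPM.

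The 5′ regions of these genes are shown first, because a stretch of sequence recurs in them. RefSeq promoter windows (GRCm38.p6, 250 bases before to 50 after a start) were found for 7 of the 8 genes, under the newer symbols Ifi208 for Pydc3, Ifi213 for Pydc4 and Ifi211 for Mnda, in 9 windows; Ifi204 had no entry. The core of the interferon-stimulated response element (ISRE), the site of the interferon-activated factor ISGF3 and of IRF proteins, was searched on both strands as GAAA, any 2 bases, then GAAA. The core of the gamma-activated site, searched as TTCNNNGAA, reads the same on both strands.  The ISRE core was found in 7 of the 9 windows and in 6 of the 7 genes, against 3.44% of all 32851 windows of that length. The gamma-activated core was in 0 of the 9, against 8.3% of all windows. Stretches of 44 bases around the forward ISRE match, in capitals, are printed 5′ to 3′ on the gene's strand:
Ifi203: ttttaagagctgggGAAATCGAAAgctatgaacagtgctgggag
Mndal: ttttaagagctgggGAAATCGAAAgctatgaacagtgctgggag
Mnda: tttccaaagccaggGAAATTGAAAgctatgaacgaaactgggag
Ifi205: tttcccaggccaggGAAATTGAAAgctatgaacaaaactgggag
Pydc3: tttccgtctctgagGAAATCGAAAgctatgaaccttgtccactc
Pydc4: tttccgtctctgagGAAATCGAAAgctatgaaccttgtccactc

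These stretches lie at chr1:173942498-173942541 (Ifi203), chr1:173880194-173880237 (Mndal), chr1:173913054-173913097 (Mnda), chr1:174031860-174031903 (Ifi205), chr1:173673593-173673636 (Pydc3, plus strand) and chr1:173599316-173599359 (Pydc4), on the minus strand unless stated. The match began 35, 36 and 37 bases before the start in Ifi203, Mndal and Mnda, 58 and 73 before it in Pydc3 and Pydc4, and 134 before it in Ifi205. The starts are those of RefSeq. In GENCODE the Mndal model begins at chr1:173942491 on the minus strand, and the Mndal windows lie inside that model. That end of the model falls within the Ifi203 window that holds the match. The stretches come in pairs, with Ifi203 and Mndal alike over all 44 bases, as are Pydc3 and Pydc4. The ISRE core and the bases after it that all 6 share, GAAATNGAAAGCTATGAAC, were then searched as 1 string that contains the core, a choice made after the stretches were read. They occurred in 7 of the 32851 windows (0.0213%). The 7 were the 6 genes above and Ifi206, a further family gene that is not analysed here. The window of the family gene AI607873, described further on, held the core but not the longer string. The window of Pyhin1, which moved like the 7 genes, held neither as an exact match. It does hold taaatcgaaa, which departs from the searched core only in its first base. A match is a description of letters and not of a bound site.

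The only Aim2 window (chr1:173420354-173420653, plus strand) held neither core. It lies inside the GENCODE model of Aim2, which begins at chr1:173350879, and the sequence at that end was not searched. Whether the window bears on how Aim2 behaved below was not tested. It is printed whole:
Aim2: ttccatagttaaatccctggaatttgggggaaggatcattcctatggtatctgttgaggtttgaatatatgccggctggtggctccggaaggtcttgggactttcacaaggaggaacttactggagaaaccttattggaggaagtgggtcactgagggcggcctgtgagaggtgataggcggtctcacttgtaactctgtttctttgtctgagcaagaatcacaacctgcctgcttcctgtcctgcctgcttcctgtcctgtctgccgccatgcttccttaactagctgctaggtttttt

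How far the counts of these genes can be told apart depends on shared sequence. The longest coding transcript of each gene in GENCODE M21 was cut into every window of 50 bases, and each window was looked up in the transcripts of all other genes. Mnda was the least separable, with 27.1% of its windows found in no other gene; 44.6% were also in Ifi205, 30% in Ifi204 and 17.1% in Mndal. Ifi205 had 50.4% of its windows to itself, and 49.5% were in Mnda. Pydc3 shared 21% with Pydc4, and Pydc4 shared 22.9% with Pydc3. Aim2 shared 0 of its windows with the other 7 genes. Ifi203 shared 5.18% with Mndal, and Mndal 5.51% with Ifi203. With windows of 100 bases, Mnda still had 56.9% shared with another gene, Ifi205 41.5%, Pydc3 8.23% and Pydc4 6.12%. Pydc3 shared more of these longer windows with Ifi206 (5.64%) than with Pydc4 (3.32%). The coding sequences of Pydc3 and Pydc4 were 96.9% identical over 1761 aligned bases. Those of Ifi204 and Mnda were 96.3% identical over 1278, and those of Ifi205 and Mnda 94.7% over 1215. No source used here gives the read length or how reads that fit several genes were treated. The split of counts among Mnda, Ifi205, Ifi204 and Mndal, and between Pydc3 and Pydc4, is therefore uncertain. The same holds between Ifi203 and Mndal, and for reads that fit Ifi206 as well as Pydc3 or Pydc4. The gene models of Mndal and Ifi203 also overlap on the minus strand (37 of the 6706 exonic bases of Ifi203).

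**Figure D1:**
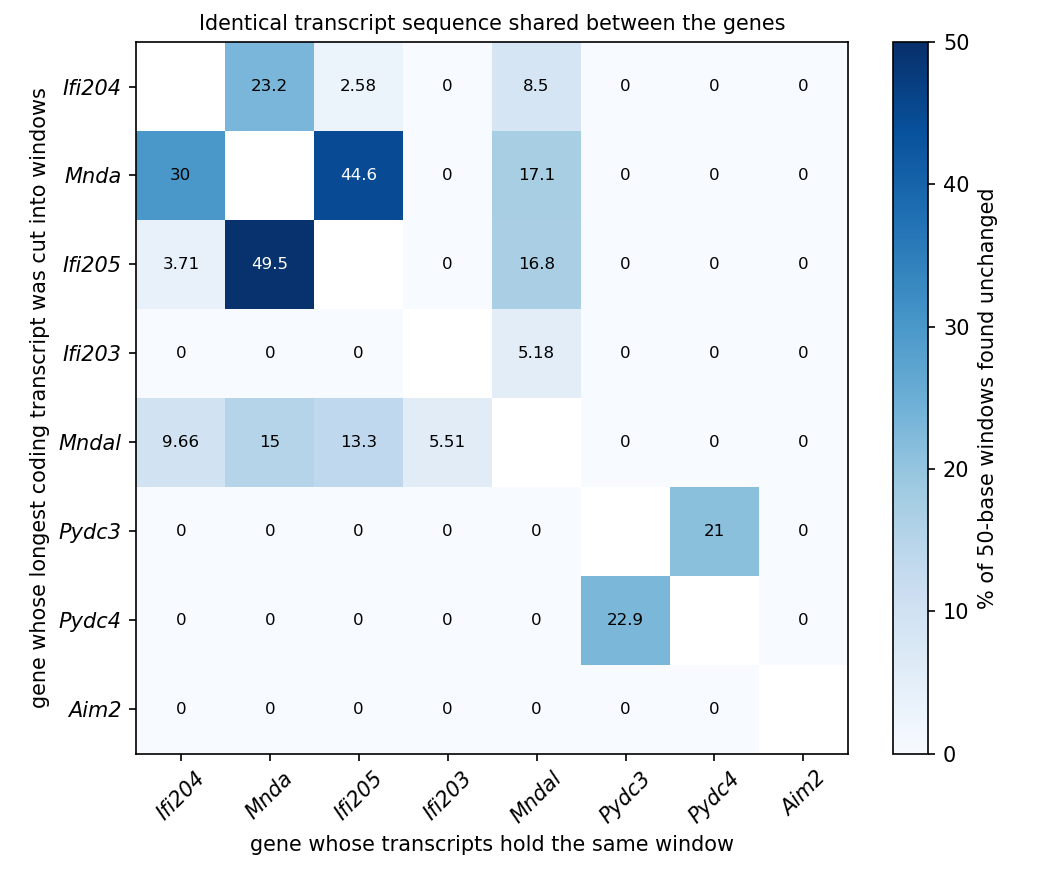
Share of 50-base windows of the longest coding transcript of each gene (rows) found unchanged in transcripts of another gene (columns), in percent. The filled block joins Ifi204, Mnda, Ifi205 and Mndal, a second block joins Pydc3 and Pydc4, and Aim2 has 0 in every cell. Ifi203 shares windows with Mndal only (5.18%) among these genes.

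Levels between the genes were compared per kilobase of exon (CPM per kb, over the union of GENCODE exons). In resting siControl cells Ifi204 and Mnda were highest, at 60.5 ± 1.74 and 57.0 ± 1.98 CPM per kb (SD, n = 3 each), and their libraries overlapped. Mndal (31.0), Ifi203 (17.3), Aim2 (8.70), Ifi205 (4.62), Pydc3 (2.28) and Pydc4 (1.65 CPM per kb) followed without overlap between neighbours. After LPS with siControl the order was Mnda (247.8), Ifi204 (136), Ifi205 (57.2), Mndal (36.2), Ifi203 (24.8), Pydc3 (9.50), Aim2 (7.31) and Pydc4 (7.06 CPM per kb). The libraries of Mnda and Ifi204 no longer overlapped, and those of Aim2 and Pydc4 did. The order depends on the gene model. By the length of the longest coding transcript, Ifi205 stood above Aim2 (11.95 and 10.7 CPM per kb) and Pydc4 above Pydc3 (4.10 and 4.01) in resting siControl cells, whereas in resting siEhd1 cells Aim2 stayed above Ifi205 (11.1 and 7.48). On that length Ifi204 (93.8) stood well above Mnda (57.0) and Mndal (55.4) in resting siControl cells. After LPS with siControl, Pydc4 (17.6) and Pydc3 (16.7) then stood above Aim2 (9.02 CPM per kb).

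**Figure D2:**
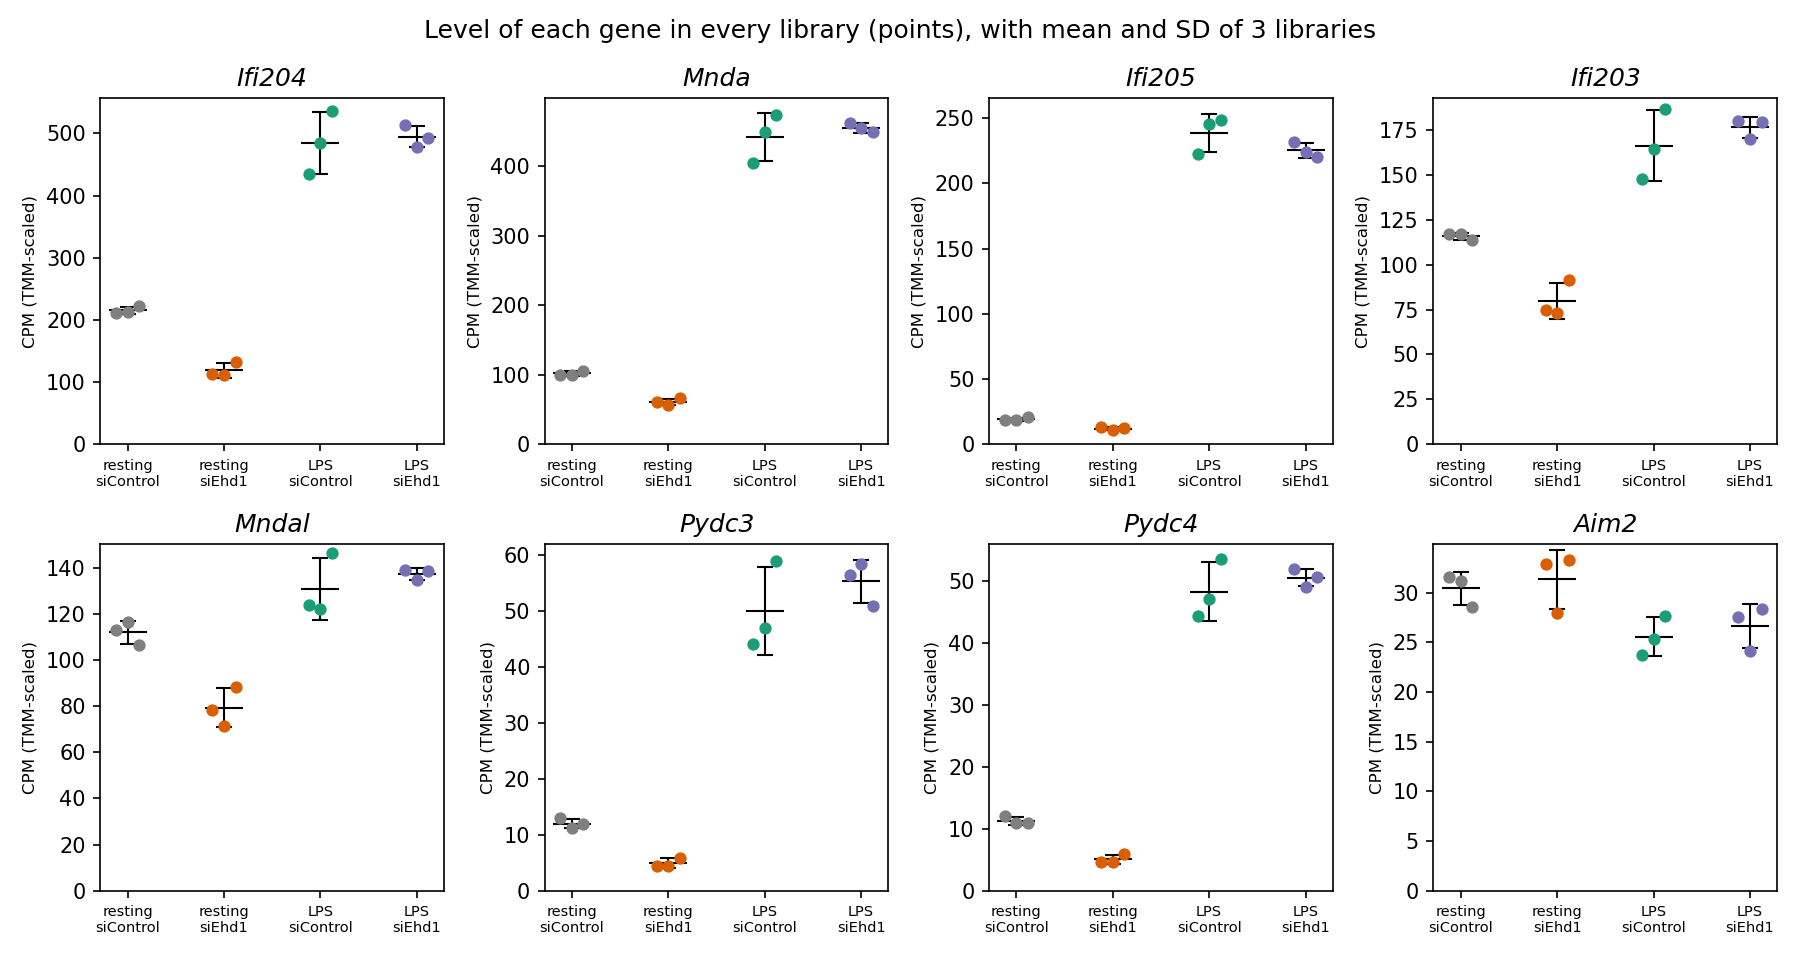
Level of each gene in CPM (vertical axis, linear from 0, a separate scale per gene) in the 12 libraries, with points for libraries and bars for mean and SD of 3. Resting siEhd1 libraries lie below all resting siControl libraries for 7 genes, LPS-treated groups overlap for all 8, and Aim2 stays between 23.8 and 33.3 CPM throughout.

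In resting macrophages 7 of the 8 genes fell with siEhd1, 0 rose, and Aim2 was not called. Over all genes tested 14.2% were called lower in this comparison and 28.2% in either direction. The median log2 fold change was -0.71 for the 8 genes and -0.02 for all genes tested. The summed level of the 8 genes went from 618.2 ± 2.52 CPM with siControl to 392.2 ± 39.0 CPM with siEhd1 (SD, n = 3 each). In all 7 genes the lowest siControl library was above the highest siEhd1 library, against 22.7% of genes tested that were lower without overlap.

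Markers of the cells themselves moved in the same comparison. Of 8 macrophage markers 5 were lower and 0 higher with siEhd1 at rest, with a summed level of 23600 to 24300 CPM with siControl and 19600 to 21000 CPM with siEhd1. Fcgr1, the high-affinity IgG receptor gene, was the largest of these changes (-0.80, SE 0.05), and it rose on LPS with siControl (2.15, SE 0.05). The stromal and endothelial sum was 26.5 to 27.2 and 13.9 to 20.8 CPM. Most of it was Kdr, which fell from 24.3 to 14.6 CPM (-0.73, SE 0.08, edgeR adjusted p = 1.7e-06). Col1a1, Col1a2, Dcn and Cdh5 were not called. The part of these marker changes in the result was not tested. In bulk samples fewer cells that make an RNA cannot be told apart from less of it per cell.

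Pydc3 and Pydc4, named for their pyrin domain, had the largest fold changes of the 8. Pydc3 stood at 12.9, 11.1 and 11.9 CPM in the resting siControl libraries and 4.36, 4.44 and 5.88 CPM in the siEhd1 libraries. Pydc4 stood at 11.97, 10.9 and 10.9 CPM and at 4.57, 4.61 and 5.92 CPM. In both genes all 3 siEhd1 libraries were far below the siControl libraries, with replicate 3 the highest of them. By edgeR Pydc3 fell to 40.9% of the control level (-1.29 on the log2 scale, SE 0.15, adjusted p = 1e-05) and Pydc4 to 44.7% (-1.16, SE 0.11, edgeR adjusted p = 1.3e-07). These resting values rest on 102 to 293 counts per library.

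Among the IFI200 genes, Ifi204 encodes p204, the mouse protein closest in role to human IFI16, a DNA sensor that acts through STING. It stood at 210, 213 and 222 CPM with siControl and 113, 111 and 132 CPM with siEhd1, a fall to 55.1% (-0.86, SE 0.07, edgeR adjusted p = 8.5e-08). Mnda, whose row corresponds to Ifi211 in newer annotation, stood at 99.9, 99.6 and 106 CPM and at 60.2, 56.5 and 66.0 CPM (-0.74, SE 0.06, edgeR adjusted p = 6.1e-08). Neither gene had overlapping groups, and in both the siEhd1 libraries spread more than the siControl libraries.

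Ifi205 encodes p205, reported to control expression of the inflammasome adaptor ASC. Its libraries read 18.5, 18.8 and 20.5 CPM with siControl and 12.9, 10.8 and 12.5 CPM with siEhd1, a fall of 0.68 on the log2 scale (SE 0.08, edgeR adjusted p = 1.9e-06). Pycard, the ASC gene, was at 32.9 and 35.1 CPM in the same groups and was not called (0.09, SE 0.07, edgeR adjusted p = 0.34).

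Ifi203 and Mndal had the smallest falls of the 7, to 69.0% and 70.7% of control. Mndal stood at 113, 117 and 107 CPM with siControl and 78.5, 71.5 and 88.4 CPM with siEhd1, giving a log2 value of -0.50 (SE 0.07, edgeR adjusted p = 6.5e-05). Ifi203 ranged from 113 to 117 CPM and from 73.2 to 91.3 CPM (-0.54, SE 0.09, edgeR adjusted p = 0.00022). In both genes the highest siEhd1 library was again replicate 3, and it stayed below every control.

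Aim2 did not follow the family. It stood at 31.6, 31.2 and 28.6 CPM in resting siControl libraries and at 32.9, 27.9 and 33.3 CPM in siEhd1 libraries. The groups overlapped, and the log2 fold change was 0.04 (95% interval -0.12 to 0.21, edgeR adjusted p = 0.73), an interval that lies wholly above those of the other 7 genes, whose upper bounds reach -0.34. Aim2 was 0.0541, 0.0532 and 0.0483 of the summed CPM of the other 7 genes in siControl libraries, and 0.0944, 0.0842 and 0.0828 in siEhd1 libraries. This ratio was higher in 3 of 3 siEhd1 libraries (difference 0.75 on the log2 scale, 2-sided exact permutation p = 0.1, the smallest that 3 against 3 can give; 0.16 after Benjamini-Hochberg adjustment over 16 such ratio tests).

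**Figure D3:**
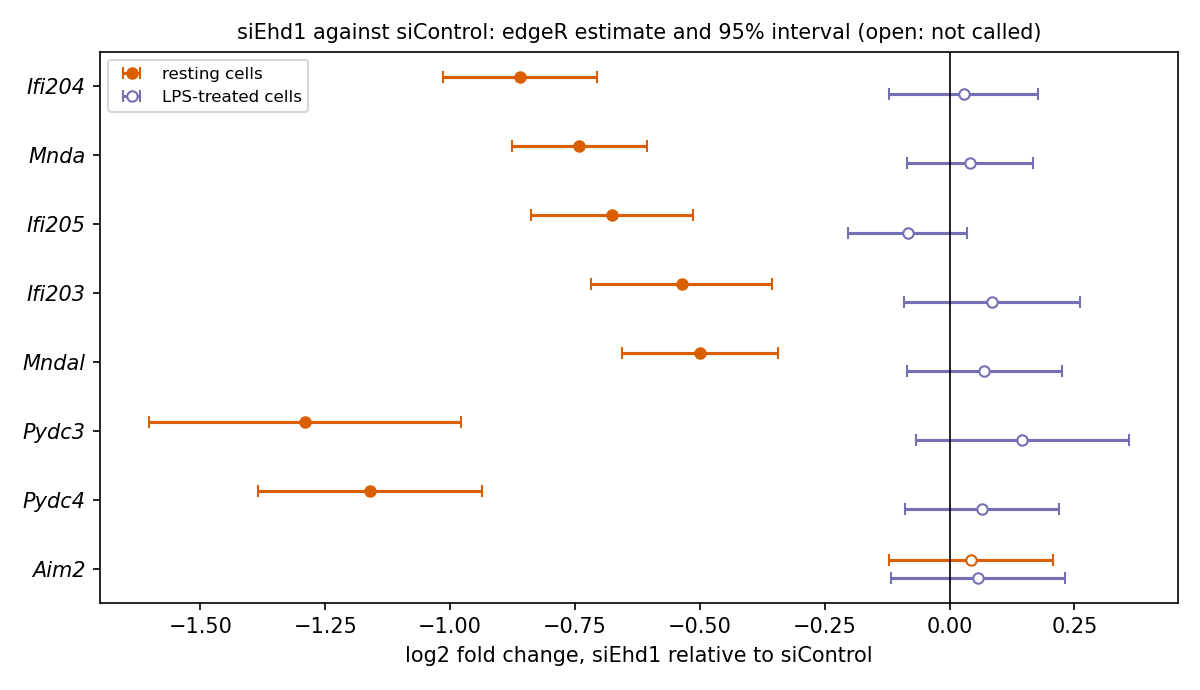
Log2 fold change of siEhd1 relative to siControl (horizontal axis) for each gene in resting (orange) and LPS-treated cells (violet), as edgeR estimates with 95% intervals; open points were not called. In resting cells 7 genes lie between -1.29 and -0.50 and Aim2 at 0.04, and after LPS all 8 lie between -0.08 and 0.15.

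After LPS, no difference between siEhd1 and siControl cells passed the test in any of the 8 genes. By edgeR 0 of 8 were called, 0 had an unadjusted p under 0.05, and DESeq2 and limma-voom each called 0; over all genes tested 8.54% were called, 4.10% lower and 4.44% higher. The groups overlapped for all 8, where 12.6% of genes tested were lower without overlap and 12.6% higher. Ifi204 stood at 435, 484 and 535 CPM with siControl and 513, 479 and 492 CPM with siEhd1, with the siEhd1 libraries inside the control range. Pydc3 stood at 44.1, 46.8 and 58.9 CPM with siControl and 56.5, 58.4 and 50.9 CPM with siEhd1, again overlapping. The 95% intervals of the 8 log2 fold changes reached from -0.20 (Ifi205) at the lowest to 0.36 (Pydc3) at the highest. Pydc3 was called higher (0.29, edgeR adjusted p = 0.037) only when siControl replicate 3, its highest control, was left out; over its alternatives the adjusted p ran from 0.037 to 0.77.

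The difference of the siEhd1 effects between the states was itself called for 7 of the 8 genes, all with a less negative effect after LPS, where 3.12% of all genes tested were called in that direction, 2.93% in the other and 6.04% in all. It was largest for Pydc3 (1.44, SE 0.18, edgeR adjusted p = 2e-04) and Pydc4 (1.22, SE 0.13, edgeR adjusted p = 9.8e-06). Ifi204 (0.89), Mnda (0.78), Ifi203 (0.62), Ifi205 (0.59) and Mndal (0.57) followed on the log2 scale. Aim2 had a difference of 0.01 (95% interval -0.23 to 0.25, edgeR adjusted p = 0.97). The level of Ehd1 RNA also differed between the states. Its mean in resting cells was 53.25 CPM for the control siRNA and 31.5 CPM for the siRNA against Ehd1. In LPS-treated cells the corresponding means were 619.7 and 301.8 CPM. After LPS, cells with siEhd1 thus still held more Ehd1 RNA than resting control cells. What part these levels have in the difference was not tested.

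LPS raised 7 of the 8 genes in siControl cells and lowered Aim2, where 34.8% of all genes tested were called higher, 34.0% lower and 68.8% in either direction. Groups did not overlap for any of the 8; over all genes tested 35.5% were higher without overlap and 35.3% lower. The states stand in 2 tables and no batch is named, so LPS and any difference in handling of the tables cannot be told apart. Ifi205 rose most: its siControl libraries read 18.5 to 20.5 CPM at rest and 222.3, 245.6 and 248.8 CPM after LPS, a 12.4-fold increase (3.63, SE 0.07, edgeR adjusted p = 2.9e-20). Mnda rose from 101.8 ± 3.53 to 442.4 ± 34.5 CPM (SD, n = 3 each), or 4.35-fold (2.12, SE 0.06). Since 44.6% of the 50-base windows of Mnda also occur in Ifi205, part of either rise could be counted in the other row, which was not tested. The CPM ratio of Mnda to Ifi205 had a mean log2 of 2.40 at rest and 0.89 after LPS with siControl (2-sided exact permutation p = 0.1, the smallest possible, and 0.16 adjusted over the 16 ratio tests).

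Pydc4 rose 4.29-fold in siControl cells (2.10, SE 0.08), from between 10.9 and 11.97 CPM to between 44.3 and 53.5 CPM. Pydc3 rose 4.17-fold (2.06, SE 0.11) and Ifi204 2.25-fold (1.17, SE 0.07). Ifi203 rose 1.44-fold (0.52, SE 0.08, edgeR adjusted p = 3.9e-05). The genes thus covered a range from 12.4-fold in Ifi205 to 1.17-fold in Mndal.

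For Mndal the siControl libraries read 113, 117 and 107 CPM at rest and 124, 123 and 147 CPM after LPS (0.22, SE 0.07, edgeR adjusted p = 0.012). The groups did not overlap, but LPS replicate 3 stood apart. Without it the log2 fold change was 0.13 (edgeR adjusted p = 0.10), and without resting siControl replicate 3 it was 0.19 (edgeR adjusted p = 0.051); over the alternatives, those that sum copies aside, the adjusted p ran from 0.0031 to 0.10.

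Aim2 was lower after LPS, at 23.8, 25.3 and 27.7 CPM against 28.6 to 31.6 CPM at rest with siControl, or 84.1% (-0.25, SE 0.08, edgeR adjusted p = 0.010). The groups did not overlap but nearly met. The call was lost without LPS siControl replicate 1 (-0.20, edgeR adjusted p = 0.051; range over the alternatives 0.0030 to 0.051). In siEhd1 cells Aim2 read 27.6, 24.1 and 28.3 CPM after LPS and overlapped the resting libraries (-0.24, SE 0.08, edgeR adjusted p = 0.015). It missed the threshold without resting siEhd1 replicate 1 or 3 or LPS siEhd1 replicate 2 (edgeR adjusted p = 0.064, 0.073 and 0.10; range over the alternatives 0.0026 to 0.10).

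**Figure D4:**
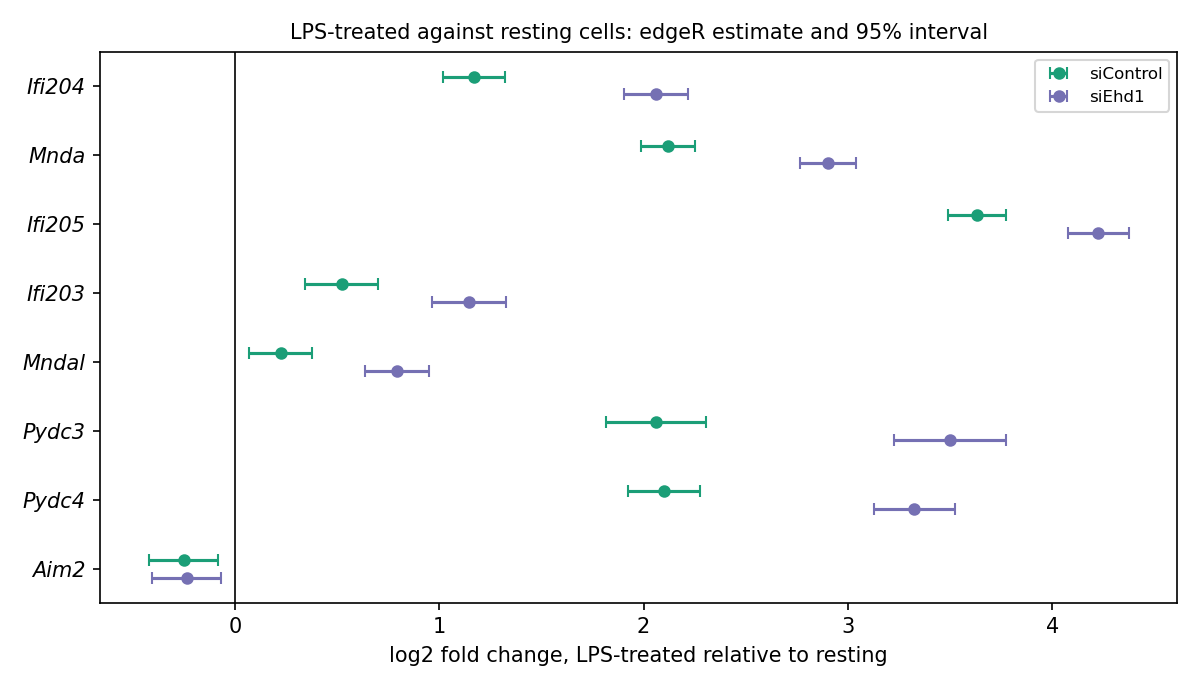
Log2 fold change of LPS-treated relative to resting cells (horizontal axis) for each gene with siControl (green) and with siEhd1 (violet), as edgeR estimates with 95% intervals. The siEhd1 estimate is higher for the 7 genes other than Aim2, and Aim2 lies at -0.25 and -0.24.

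With siEhd1 the rise on LPS started from lower resting levels and ended at levels that overlapped those of control cells. Over all genes tested 32.9% were called higher, 34.0% lower and 67.0% in either direction in this comparison, and the same 7 and 1 genes were called as with siControl. Ifi205 rose 18.7-fold, Pydc3 11.3-fold, Pydc4 10.02-fold, Mnda 7.47-fold and Ifi204 4.17-fold. Ifi203 (2.21-fold) and Mndal (1.73-fold) rose least, and the groups of these 7 genes did not overlap, where 35.2% of genes tested were higher without overlap and 36.0% lower. Each of these 7 folds shares its libraries with the comparisons above, and the test that they differ between the siRNAs is the test of the difference already given.

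Other genes of the family and its pathways were read from lists of symbols. Of 4 further IFI200 rows in the tables, Ifi202b, whose product p202 lacks the pyrin domain and can block AIM2, had 0 counts in 10 of 12 libraries and 2 counts in all. The other 3 fell with siEhd1 at rest: Pyhin1 (Ifi209 in newer annotation) from 115 to 64.9 CPM (-0.83, SE 0.07), BC094916 from 3.02 to 1.39 CPM (-1.11, SE 0.18) and AI607873 (Ifi207) from 465.8 to 382 CPM (-0.29, SE 0.05). Pyhin1 and BC094916 rose on LPS (1.80 and 1.92 with siControl). AI607873 did the opposite: it fell on LPS with siControl (-0.70, SE 0.05, edgeR adjusted p = 3.9e-10) and was higher with siEhd1 than with siControl after LPS (0.29, SE 0.05, edgeR adjusted p = 0.0019), with siControl libraries at 279.2, 278.8 and 302 CPM and siEhd1 libraries at 347.5, 365.1 and 336.5 CPM.

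The counts of the lists that follow stand against 14.2% of all genes tested called lower at rest and 4.10% after LPS. At rest 2 of 8 and 1 of 6 are near the former. After LPS, lists with 1 gene called lower hold too few genes to be set apart from 4.10%. Of 8 genes that act with AIM2 in the inflammasome, 2 fell with siEhd1 at rest and 0 rose: the inflammatory caspase gene Casp4 (-0.49, SE 0.11, edgeR adjusted p = 0.0031) and the caspase-1 gene Casp1 (-0.24, SE 0.08, edgeR adjusted p = 0.026). Casp8 (0.09) and Pycard (0.09) were not called. The list's median was -0.12. On LPS with siControl 7 of the 8 rose, where 34.8% of all genes tested were called higher, and Pycard was not called (-0.03). Of 6 other pyrin domain genes that passed the filter, Pycard again among them, Mefv, the gene of pyrin itself, fell at rest (-0.32, SE 0.10, edgeR adjusted p = 0.025), and 5 were not called (list median -0.08). With siEhd1 after LPS, 1 of the 8 inflammasome genes was lower and 0 higher, the interleukin-1 beta gene Il1b (-0.47, SE 0.10, edgeR adjusted p = 0.011), named after its value was seen. Of the 6 pyrin domain genes 2 were lower and 0 higher after LPS: Mefv, by nearly as much as at rest (-0.32, SE 0.07, edgeR adjusted p = 0.0053), and the inflammasome sensor gene Nlrp3 (-0.30, SE 0.07, edgeR adjusted p = 0.011).

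Of 10 genes of cytosolic DNA sensing 4 fell at rest and 0 rose (median -0.07). The nucleic acid sensor Zbp1 fell from 35.2 to 16.2 CPM (-1.12, SE 0.08). The deoxynucleotide hydrolase Samhd1 (-0.33, SE 0.05), the exonuclease Trex1 (-0.35, SE 0.06) and the kinase Ikbke (-0.33, SE 0.08) also fell. Of 14 interferon signalling genes 10 fell and 0 rose (median -0.23), among them Irf7, a transcription factor of the interferon response (-0.88, SE 0.07), Stat2 (-0.60, SE 0.07) and Irf2 (-0.35, SE 0.06). Of 10 reference interferon-stimulated genes 9 fell, with a median of -0.996. With siEhd1 after LPS, 1 of the 10 DNA sensing genes was lower (Samhd1, -0.18) and 1 of the 14 interferon signalling genes (Jak2, -0.46), with 0 higher in either list. Of the 10 reference genes 1 was lower (Oasl2, -0.19) and 1 higher (Cxcl10, 0.70) after LPS; Jak2 and Cxcl10 were named after their values were seen. The median of all genes tested at rest is again -0.02, and what part any of these genes has in the change of the IFI200 genes was not tested.

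The genes whose pattern was most like the median of the 8 were found by the root mean square difference of log2 CPM, centred per gene, over 12 libraries, among 9424 other genes whose mean reached 5 CPM. Helz2 (0.09), Trim30d (0.11), Pyhin1 (0.12), Dhx58 (0.14) and Xaf1 (0.14) were nearest, where 0 is an identical pattern in log2 units. For single genes the nearest were Fcgr1 for Mnda and for Pydc4, H2-T24 for Ifi204, Il18bp for Ifi205, Daxx for Ifi203, Lpin2 for Mndal, Ifit1 for Pydc3 and Wsb1 for Aim2. Wsb1 was at 132 and 129 CPM at rest and 111 and 110 CPM after LPS with siControl and siEhd1. Within the family Pydc3 and Pydc4 were nearest to each other (0.09), followed by Ifi203 and Mndal (0.17) and by Mnda and Pydc4 (0.19), and Aim2 and Ifi205 were farthest apart (2.10).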

How the data were processed

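PolyA RNA of 12 macrophage libraries was measured, and the authors deposited 2 tables of raw gene counts, 1 for resting and 1 for LPS-treated libraries. Per the submitters' processing notes, reads were handled on mm10 with Trim Galore 0.6.3, STAR 2.7.6a and featureCounts 2.20.0; no source used here gives the annotation or strand setting. Columns were matched by library name, and 0 were left unused. Counts were filtered with filterByExpr (minimum count 10, minimum total 15), scaled by TMM and fitted in edgeR 4.0.16 (R 4.3.3) with 1 mean per group over all 12 libraries (8 residual degrees of freedom). Called means a quasi-likelihood F test with Benjamini-Hochberg adjusted p under 0.05 over 12164 genes; SE is the absolute log2 fold change over the square root of F. The script was tested on simulated data. Replicates of a group differed by more than counting error (chi-square over its degrees of freedom 2.996 to 23.56). Transcripts and exons came from GENCODE M21 (GRCm38). The genes and lists were chosen with earlier results of these data known. Named genes were the 8, Ehd1, up to 4 per list with the smallest p at rest, and the nearest patterns; others were named after their values were seen.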

Additional observations from a re-analysis of the deposited data

Results flagged for a closer look

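In 7 genes the siEhd1 effect differed between resting and LPS-treated cells by the edgeR test of the difference. The effect after LPS minus that at rest, on the log2 scale, was 1.44 for Pydc3, 1.22 for Pydc4, 0.89 for Ifi204, 0.78 for Mnda, 0.62 for Ifi203, 0.59 for Ifi205 and 0.57 for Mndal, with adjusted p from 9.8e-06 to 0.0052. Each of the 7 stayed called in 18 of 18 alternatives, which include leaving out each library in turn; those that sum copies are not among the 18.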

How the results depend on the processing

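The alternatives were RLE size factors, no filter on low counts, DESeq2, limma-voom, the replicate number as a block, a fit of one state alone, summed counts of close copies, and leaving out each library in turn. The count of genes called at rest (7), with LPS in either siRNA (8 each) and for the difference (7), and of 0 for siEhd1 after LPS, was the same with the replicate block, with DESeq2 and with limma-voom. Correlations of deviations from the group mean ran from -0.216 to 0.251 between same-numbered libraries. Between differently numbered libraries they ran from -0.198 to 0.274. With 3 libraries per group these values cannot tell whether the number marks a pairing. Without each library in turn, the count after LPS ranged from 0 to 1, the 1 being Pydc3 without siControl replicate 3. With Ifi204, Ifi205, Mnda and Mndal summed into 1 row, an alternative chosen after seeing the data, 4 of 5 rows were called at rest and for the difference and 5 of 5 with LPS in either siRNA, since fewer rows were tested. No alternative reversed a call. In the LPS comparisons, the calls of Mndal (siControl) and Aim2 (both siRNAs) were lost without single libraries, as given with those results. Pydc3 had the widest SE of the 8 genes.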
